A study of Mus musculus with 6 samples.

Results

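Immunoglobulin and B lineage genes were compared between the livers of 3 NZB mice and 3 SM mice, all untreated females aged 8 weeks, of the inbred strains NZB/BinJ and SM/J. The genes are Ighm, Igkv8-30, Jchain, Mzb1, Cd79a, Cd79b, Ms4a1, Pou2af1 and Tnfrsf13b, and every probe set that the platform annotation pairs with a single one of them was read, which gave 20 probe sets for 9 genes out of 45037 probe sets on the array. The list was drawn up after large differences between these strains had been seen in some of its genes, so the differences of its members are given as descriptions, without a test. The mice of both strains were weaned onto chow at 3 weeks of age and fasted for 4 hours, and each liver was flushed with 50 mL of saline, which washes out much of the blood. Each mouse gave 1 array, whose values are read as log2 expression.

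Antibodies are made by B cells and, in bulk, by the plasma cells that B cells turn into. A B cell carries its antibody on the surface as a receptor, held by the signalling pair CD79A and CD79B, while a plasma cell stops displaying most B cell surface proteins and fills its endoplasmic reticulum with antibody for secretion. Secreted IgM is built from mu heavy chains, light chains and the J chain, which links the units into a polymer. Adult liver is not a main site of antibody production, but its sinusoids hold lymphocytes, and NZB mice are known for autoimmune haemolytic anaemia and for B cells that secrete much IgM.

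Jchain, Igkv8-30 and a pair of the 11 Ighm probe sets read far higher in NZB livers, while the other Ighm probe sets differed by less. The receptor, surface and regulatory genes of B cells differed little, and several of them read near background, where a difference can be understated. In RNA of whole liver, more cells of a type and more RNA per cell cannot be told apart. The 4 probe sets at 8-fold or more were a pair for Ighm, the one for Jchain and the one for Igkv8-30, where 0.0422% of all probe sets were at 8-fold or more higher in NZB. The other 16 differed by 0.01 to 0.94 on the log2 scale. By limma's test over the whole array, 9 of the 20 passed a Benjamini-Hochberg adjusted p under 0.05, all higher in NZB, and 6 did without SM replicate 2, an array that stood apart as described below. Genes with a probe set among the 9 were Ighm, Igkv8-30, Jchain, Ms4a1, Pou2af1 and Tnfrsf13b, while Mzb1, Cd79a and Cd79b had none. Of all 45037 probe sets, 14.8% passed, 6.09% as higher and 8.69% as lower in NZB. The 3 NZB arrays lay wholly above the 3 SM arrays on 11 of the 20, against 18.2% of all probe sets, and on the other 9 the arrays overlapped. The median difference was 0.22 over the 20 probe sets and 0.02 over all probe sets. Since the members were chosen from this same comparison, nothing is read from these counts.

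**Figure D1:**
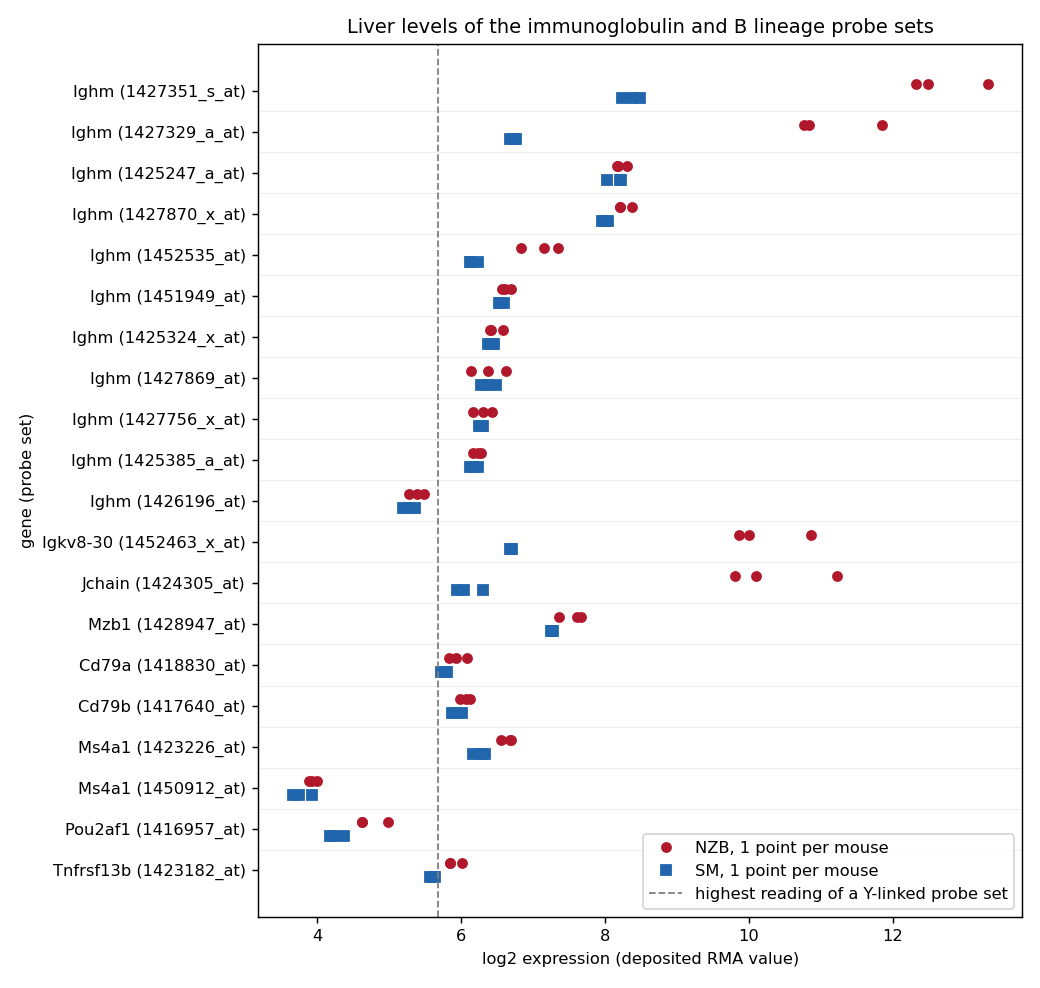
Log2 expression (x axis) of each of the 20 probe sets (y axis) in each mouse, with NZB mice as circles above SM mice as squares and a dashed line at 5.67, the top reading among probe sets of Y-linked genes. The NZB mice stand far to the right on 2 Ighm probe sets, Igkv8-30 and Jchain, and close to the SM mice on the rest.

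SM replicate 2 stood apart from the other arrays in Xist, the RNA of the inactive X chromosome. Its brightest probe set read 12.66, 12.63 and 12.60 in the NZB mice, against 12.84, 7.32 and 12.91 in SM replicates 1, 2 and 3. Its Y-linked probe sets were as low as those of the others, and no Y-linked reading on any array passed 5.67. That value serves below as a rough mark of background, although each probe set has a background of its own. The tissue read as liver on every array: Alb, the gene of serum albumin, was at 14.86 to 14.90, and of 6 hepatocyte markers 0 passed the test. Array medians lay between 6.60 and 6.66, and the number of arrays limits the precision of every value.

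Ighm encodes the constant region of the mu heavy chain, the class-defining part of IgM. It had 11 probe sets, and they disagreed. The brightest, 1427351_s_at, read 12.32, 12.49 and 13.32 in NZB mice, against 8.37, 8.49 and 8.24 in SM mice. Probe set 1427329_a_at read 10.76, 10.84 and 11.84 in NZB mice, against 6.68, 6.76 and 6.73 in SM mice. On both, every NZB mouse was above every SM mouse by a wide gap, and NZB replicate 3 was the highest of all. The log2 differences were 4.35 (SE 0.22) and 4.42 (SE 0.24), or 20.3-fold and 21.5-fold.

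A further pair of Ighm probe sets separated the strains by less. On 1452535_at the NZB mice read 7.34, 7.14 and 6.84 and the SM mice 6.13, 6.14 and 6.24, a difference of 0.94 (SE 0.11). Here NZB replicate 3 was the lowest NZB mouse. On 1427870_x_at the NZB mice read 8.21, 8.20 and 8.38 and the SM mice 8.05, 7.95 and 8.00, a difference of 0.26 (SE 0.07). The NZB arrays lay above the SM arrays on both.

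The remaining 7 Ighm probe sets did not separate the strains: on all 7 the arrays overlapped, and the differences ran between 0.01 and 0.11. On 1425247_a_at the readings were 8.18, 8.17 and 8.31 in NZB mice and 8.20, 8.03 and 8.23 in SM mice. On 1427869_at they were 6.14, 6.37 and 6.62 in NZB mice and 6.28, 6.36 and 6.48 in SM mice. On both, readings of the strains overlapped. Their differences were 0.07 (SE 0.08) and 0.01 (SE 0.12). Probe sets 1451949_at, 1425324_x_at, 1427756_x_at and 1425385_a_at differed by 0.07, 0.04, 0.02 and 0.06. Probe set 1426196_at lay under 5.67 on all 6 arrays, at 5.27, 5.38 and 5.49 in NZB mice and 5.28, 5.19 and 5.36 in SM mice. Antibody heavy chain genes share near-identical sequence and are rearranged, so which transcript a probe set reads is uncertain. The effect of sequence variants between the strains on single probes was not tested.

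**Figure D2:**
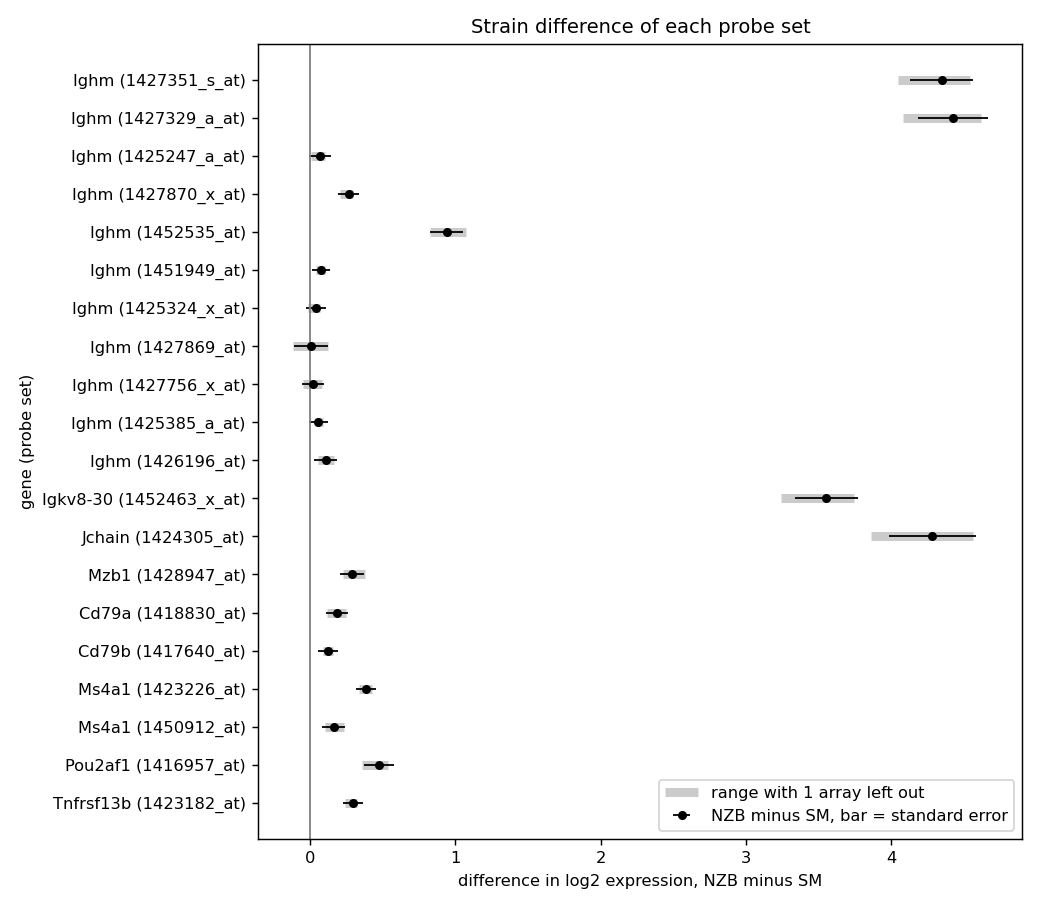
Difference in log2 expression, NZB minus SM (x axis), of each probe set (y axis), with limma's standard error as a thin bar and the range of the difference when 1 array is left out as a grey band. Only 2 of the Ighm probe sets, Igkv8-30 and Jchain lie above 3, and the grey bands of these 4 stay above 3.

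Igkv8-30 is a variable segment of the kappa light chain, the partner of most mouse heavy chains. Its single probe set, 1452463_x_at, read 9.86, 9.997 and 10.87 in NZB mice, against 6.68, 6.69 and 6.70 in SM mice. The SM mice lay within 0.02 of each other, while the NZB mice spread over 1.01 with replicate 3 on top. The difference was 3.55 (SE 0.22), or 11.7-fold. The name of this probe set marks it as open to cross-hybridization, so other kappa transcripts may be read by it. A further 7 probe sets are paired by the annotation with several genes that include Igkv8-30 or Ighm, and they were kept out of the members. The kappa ones among them, 1427455_x_at, 1427660_x_at and 1452417_x_at, differed by 4.02, 4.06 and 4.24. On 1427660_x_at the NZB mice read 12.54, 12.49 and 13.13 and the SM mice 8.51, 8.81 and 8.66. The heavy chain ones differed by -0.02 to 0.39.

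Jchain encodes the J chain, which joins IgM and IgA units and guides them across epithelia. Its probe set, 1424305_at, read 9.81, 10.09 and 11.22 in NZB mice, against 5.94, 6.30 and 6.03 in SM mice. The NZB mice were all far above the SM mice, which lay not far above 5.67, and NZB replicate 3 was again the highest. The difference was 4.28 (SE 0.30), or 19.5-fold. Without NZB replicate 3 it was 3.86, and the differences of Ighm on 1427351_s_at and of Igkv8-30 were 4.04 and 3.24. Without SM replicate 2, the array that stood apart in Xist, they were 4.39 for Jchain, 4.41 for Ighm and 3.55 for Igkv8-30.

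Pou2af1 encodes a coactivator that joins the OCT factors on the octamer, a short motif best known from immunoglobulin promoters. The octamer, ATGCAAAT on either strand, was therefore looked for in the promoter windows that RefSeq's annotation of GRCm38.p6 gives for the members, each running 250 bases before and 50 after a transcription start. Of the 9 genes, 4 had a window: Jchain, Cd79a, Pou2af1 and Tnfrsf13b. None of the 4 held the octamer, against 1.74% of all 32851 windows. None held its core, ATGCAAA, which 4.63% of all windows held, and none held CCCNNGGG, letters of the kind bound by the B cell factor EBF1, which 13.7% held. The absence of a match says only that these exact letters are not in the window. Looser matches were not counted, such as ctcaaggg in the Cd79a window, which departs from CCCNNGGG by a single base. Binding of any factor was not tested. The windows of the J chain gene, which differed most between the strains among these 4, and of the receptor gene Cd79a, which differed least, are shown up to the first transcribed base, which is in capitals. The first lies at chr5:88527897-88528147 on the minus strand and the second at chr7:24897247-24897497 on the plus strand.
Jchain: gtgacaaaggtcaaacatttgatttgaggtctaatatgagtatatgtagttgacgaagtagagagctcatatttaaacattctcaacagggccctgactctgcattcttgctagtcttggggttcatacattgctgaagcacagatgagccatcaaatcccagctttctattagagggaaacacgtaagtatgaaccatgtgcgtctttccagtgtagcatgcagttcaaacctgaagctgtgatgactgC
Cd79a: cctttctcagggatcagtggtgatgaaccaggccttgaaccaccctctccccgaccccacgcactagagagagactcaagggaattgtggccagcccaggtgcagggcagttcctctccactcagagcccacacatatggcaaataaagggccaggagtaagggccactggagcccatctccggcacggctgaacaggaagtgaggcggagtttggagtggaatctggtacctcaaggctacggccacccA

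Mzb1 encodes a protein of the endoplasmic reticulum that helps to assemble and secrete IgM. Its probe set, 1428947_at, read 7.36, 7.61 and 7.67 in NZB mice, against 7.25, 7.27 and 7.27 in SM mice. Every NZB mouse was above the SM mice, by a small step. The difference was 0.29 (SE 0.08).

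Cd79a and Cd79b encode the signalling pair of the B cell receptor. Cd79a, on 1418830_at, read 5.82, 6.08 and 5.92 in NZB mice, against 5.80, 5.71 and 5.77 in SM mice, and its difference was 0.18 (SE 0.08). Cd79b, on 1417640_at, read 6.12, 6.07 and 5.98 in NZB mice, against 6.01, 5.87 and 5.93 in SM mice, and its difference was 0.12 (SE 0.07). The NZB mice lay just above the SM mice for Cd79a and overlapped with them for Cd79b, and the SM readings began just over the background mark, at 5.71.

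Ms4a1 encodes CD20, a surface protein of B cells that plasma cells lack. On its brighter probe set, 1423226_at, it read 6.68, 6.56 and 6.69 in NZB mice, against 6.17, 6.33 and 6.27 in SM mice. The strains did not overlap, and the difference was 0.38 (SE 0.07), or 1.31-fold. The dimmer probe set, 1450912_at, stayed under the background mark on all 6 arrays, at 4.00, 3.93 and 3.88 in NZB mice and 3.92, 3.66 and 3.74 in SM mice.

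Pou2af1, on 1416957_at, also lay under that mark on all 6 arrays, at 4.62, 4.62 and 4.98 in NZB mice and 4.18, 4.24 and 4.37 in SM mice. The readings did not overlap and differed by 0.48 (SE 0.10), but no fold is given for values under background. Tnfrsf13b encodes TACI, a receptor for the B cell survival factors BAFF and APRIL. On 1423182_at it read 6.003, 5.84 and 5.85 in NZB mice, against 5.56, 5.63 and 5.61 in SM mice. Only the NZB mice were above the mark, so that the NZB mean was at least 1.17-fold higher than the SM mean, and the readings differed by 0.29 (SE 0.07). A measured difference near background can be understated, for this gene and for Cd79a, Cd79b and Pou2af1 alike.

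The NZB mice did not keep one order across the antibody genes. NZB replicate 3 was highest and replicate 1 lowest on the 4 probe sets with the largest differences, by 0.99 and 1.08 for Ighm, 1.01 for Igkv8-30 and 1.41 for Jchain. On other called immunoglobulin probe sets the order varied. NZB replicate 3 was the lowest of the NZB mice on Ighm 1452535_at, on both called probe sets of the lambda segment Iglv1 and on the kappa segment Igkv9-120. NZB replicate 1 was the highest on Igk 1425738_at, with 7.92 against 6.60 and 6.76 in NZB replicates 2 and 3. NZB replicate 3 was the highest, as on the leading 4, on Igk 1452557_a_at, Igkv15-103 and Igkv6-20. With 3 mice these orders are descriptions of single animals.

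**Figure D3:**
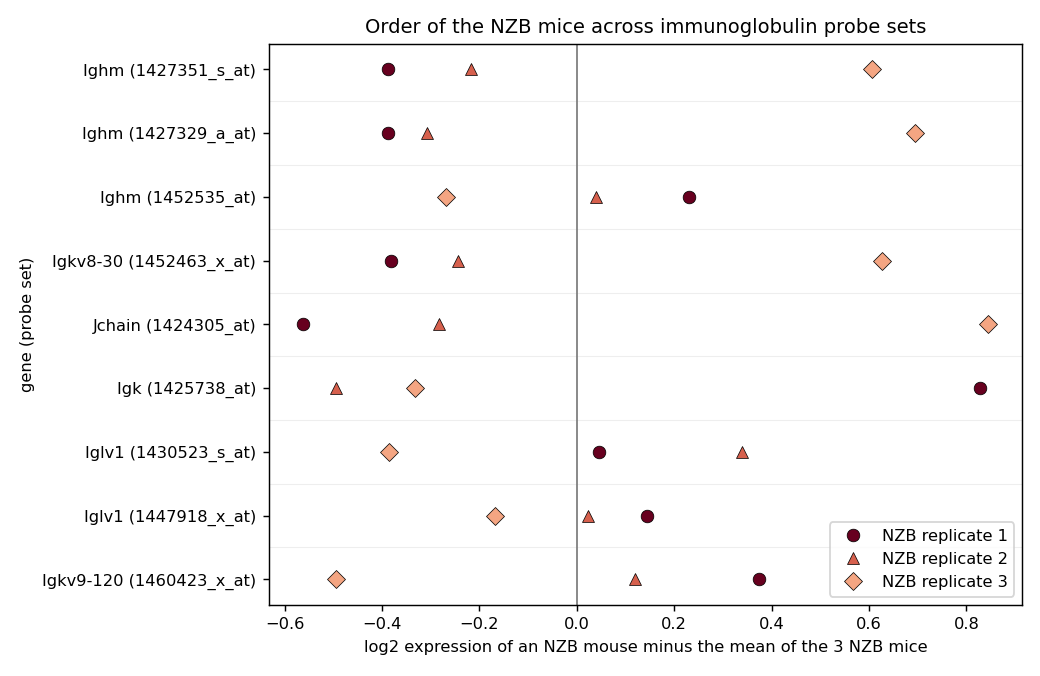
Log2 expression of each NZB mouse minus the mean of the 3 NZB mice (x axis) on the member probe sets with a difference of 0.94 or more and the other immunoglobulin probe sets at 2-fold or more (y axis). Replicate 3, the diamond, is rightmost on the upper Ighm pair, Igkv8-30 and Jchain and leftmost on Ighm 1452535_at, both Iglv1 probe sets and Igkv9-120.

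Immunoglobulin genes outside the list were read through 31 probe sets of 18 genes. Of these, 7 passed the test as higher in NZB, against 6.09% of all probe sets, and 0 as lower, against 8.69%. The other 24 did not pass, and the median difference of the 31 was 0.13. The largest difference was that of Iglv1, a lambda light chain segment, on 1430523_s_at. It read 8.17, 8.46 and 7.74 in NZB mice, against 5.45, 5.45 and 5.38 in SM mice, which lay under the background mark, so that it was at least 5.47-fold higher (2.70, SE 0.15, adjusted p = 1.2e-05). Igkv9-120 on 1460423_x_at was at least 1.30-fold higher, with SM readings of 4.41 to 4.57 and that of NZB replicate 3, 5.55, all under the mark (adjusted p = 0.00084). Igk on 1425738_at differed by 1.46 (SE 0.29, adjusted p = 0.0099) and Iglv1 on 1447918_x_at by 1.14 (SE 0.09, adjusted p = 7.9e-05). A further Igk probe set, 1452557_a_at, differed by 0.69 (SE 0.14, adjusted p = 0.011). Igkv15-103 was at least 1.04-fold higher (adjusted p = 0.0025), with SM mice and NZB replicate 2 under the mark. The smallest called difference, that of Igkv6-20, was 0.36 between readings under background. Igk on 1425738_at lost its call when limma's variances were trended and robust (adjusted p = 0.072). Probe sets of the same gene disagreed here too. Those that did not pass were 1427292_at of Iglv1 (-0.05), 1452536_s_at and 1427750_at of Igkv9-120 (0.35 and 0.03), and 1426178_at and 1427757_at of Igk (0.11 and 0.06). Of these, 1427292_at, 1427750_at and 1426178_at lay under the background mark on all arrays. Of the heavy chain genes of other classes, only Igha and Ighg3 had probe sets of their own, and these did not pass. The 3 probe sets of Igha, the constant region of IgA, differed by 0.13 to 0.17. The 4 of Ighg3, of the IgG class, differed by 0.00 to 0.10, and among them 1426198_at and 1426199_x_at lay under the background mark on all arrays.

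Other genes of the B lineage moved little. Over 7 lists of B lineage genes, 67 genes were measured through their brightest probe set, and 10 passed the test as higher in NZB and 7 as lower, with a median difference of 0.10. Over all 18193 genes, 7.09% were higher, 11.2% were lower, and the median was 0.02. With array medians aligned 6 were higher and 8 lower, and after quantile normalization 11 and 5. The calls numbered 8, 9, 7 and 7 without NZB replicate 1, NZB replicate 2, NZB replicate 3 and SM replicate 2.

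Among 14 surface receptors, Cd72, a coreceptor that dampens B cell receptor signals, was 1.52-fold higher (0.60, SE 0.07, adjusted p = 0.00094). It read 6.68, 6.55 and 6.79 in NZB mice, against 6.04, 6.10 and 6.08 in SM mice. Ly86, which macrophages also make, was 1.74-fold higher (0.80, SE 0.08, adjusted p = 0.00031), and Cd24a was lower (-0.63, SE 0.15, adjusted p = 0.022). The call of Cd24a ended without any NZB array (adjusted p = 0.052 to 0.074). The coreceptor genes Cd22 and Cr2 differed by 0.07 and 0.03 and did not pass. The summed level of the list was 10.40 to 10.53 in NZB mice and 10.26 to 10.34 in SM mice on the log2 scale, and 2 of its 14 genes lay under the background mark on all arrays. Summed levels ran the other way for the signalling genes, at 12.26 to 12.41 in NZB mice and 12.44 to 12.63 in SM mice, and for the antibody receptor genes, at 13.87 to 14.05 in NZB mice and 14.15 to 14.26 in SM mice. Over all 7 B lineage lists they were 15.28 to 15.38 in NZB mice and 15.42 to 15.46 in SM mice. These sums add intensities, so bright genes weigh most. Some of the brightest, among them Pigr, Xbp1 and Sdc1, are not made by B lineage cells alone. The sums therefore do not measure the RNA of B lineage cells. Pik3ap1, of the signalling genes, averaged 10.08 in NZB and 10.95 in SM mice, and Pigr, of the antibody receptor genes, 13.49 and 13.84. The median differences of the signalling list, the antibody receptor list and all 7 lists were 0.14, 0.03 and 0.10.

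Among 13 signalling genes, Pik3ap1 was lower (-0.87, SE 0.13, adjusted p = 0.0027), and Bank1 and Prkcb were higher by 0.22 and 0.28 (adjusted p = 0.0499 and 0.034). The calls of Bank1 and Prkcb each ended under several settings, among them without SM replicate 2 (adjusted p = 0.11 and 0.098) and with the replicate block (adjusted p = 0.078 and 0.0501). Of 12 transcription factors, Bcl6 and Spi1 were higher by 0.40 and 0.27 (adjusted p = 0.0067 and 0.021), and Bach2 and Tcf3 were lower by 0.51 and 0.31 (adjusted p = 0.040 and 0.049). The call of Spi1 ended without NZB replicate 1, NZB replicate 3 or SM replicate 1 (adjusted p = 0.055 to 0.081), and those of Bach2 and Tcf3 on leaving out any array other than SM replicate 3 (adjusted p = 0.051 to 0.16). Pax5, the factor that keeps B cell identity, differed by 0.19 (adjusted p = 0.074).

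Plasma cell and secretion genes were split, with 2 of 14 higher and 2 lower. Derl3, which helps to clear misfolded proteins from the endoplasmic reticulum, was higher by 0.59 (SE 0.13, adjusted p = 0.018). It read 7.94, 7.71 and 8.30 in NZB mice, against 7.47, 7.29 and 7.43 in SM mice, with NZB replicate 3 the highest. Fkbp11, a folding enzyme of secretory cells, was higher by 0.31 (SE 0.06, adjusted p = 0.013). There NZB replicate 3 was the lowest NZB mouse, at 8.78 against 8.84 and 8.81 in NZB replicates 1 and 2. The calls of Derl3 and Fkbp11 ended without SM replicate 2 (adjusted p = 0.071 and 0.052). Ell2 and Txndc11 were lower by 0.56 and 0.34 (adjusted p = 0.011 and 0.048), and the call of Txndc11 ended without any 1 array (adjusted p = 0.052 to 0.14). Xbp1, Sdc1, Prdm1 and Irf4, which plasma cells need or display, differed by 0.13, 0.04, 0.08 and 0.25 and did not pass. Hepatocytes also express Xbp1 and Sdc1.

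The 3 BAFF and APRIL genes read beside Tnfrsf13b did not pass the test. The ligand gene Tnfsf13b differed by 0.05 (adjusted p = 0.71), and the receptor genes Tnfrsf13c and Tnfrsf17 by 0.00 and 0.20 (adjusted p = 0.99 and 0.11). Among the precursor B cell genes, Dntt was higher by 0.23 (adjusted p = 0.037), a call that ended without any array but SM replicate 3 (0.079 to 0.11), and the other 5 did not pass. Of the genes for antibody receptors, Pigr, which carries J chain-bearing antibodies into bile in rodents, was 1.27-fold lower (-0.35, SE 0.07, adjusted p = 0.013), and Fcgr2b was higher by 0.29 (adjusted p = 0.046). The call of Pigr ended without NZB replicate 2, NZB replicate 3 or SM replicate 2 (adjusted p = 0.052 to 0.059), and that of Fcgr2b without any 1 array (0.067 to 0.12).

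Some markers of other cell types also differed. Of 67 such markers, 25 passed as higher in NZB, against 7.09% of all 18193 genes, and 2 as lower, against 11.2%. The other 40 did not pass, and the median difference of the 67 was 0.16. Without NZB replicate 3, 16 of the 67 were higher and 0 were lower. Of 9 pan-leukocyte genes 7 were higher, led by the lymphocyte surface gene Cd52 (1.30, SE 0.14, adjusted p = 0.00041) and Ptprc, which encodes CD45 (0.80, SE 0.07, adjusted p = 0.00016). Their summed level was 11.68 to 11.88 in NZB mice and 11.36 to 11.37 in SM mice. Of 8 Kupffer cell and macrophage markers 5 were higher and 1, Marco, was lower (a call that ended without NZB replicate 1 or 3, adjusted p = 0.056 and 0.059), with a summed level of 12.98 to 13.21 in NZB mice and 12.58 to 12.72 in SM mice. Of 12 T cell markers 4 were higher, Cd3d, Cd3e, Cd3g and Thy1, by 0.33 to 0.40, with a summed level of 10.64 to 10.69 in NZB mice and 10.42 to 10.55 in SM mice. The calls of Cd3d and Cd3e ended without SM replicate 2 (adjusted p = 0.051 and 0.11), and 4 of the 12 genes lay under the background mark on all arrays. Cd3g was among those 4, at 5.16 to 5.31 in NZB mice and 4.83 to 4.92 in SM mice. Thy1 was about at the mark in NZB mice, at 5.66 to 5.69, and under it in SM mice, at 5.22 to 5.33. NK cell markers had 3 of 8 higher, with a summed level of 9.51 to 9.56 in NZB mice and 9.26 to 9.42 in SM mice. Of these 3 calls, 0 were left without NZB replicate 3, SM replicate 1 or SM replicate 2, and 1 without NZB replicate 2. Neutrophil markers had 3 of 7 higher, among them S100a8 (1.002, SE 0.19), with a summed level of 9.88 to 10.05 in NZB mice and 9.57 to 9.64 in SM mice. None of 7 dendritic cell markers passed, and of 4 erythroid markers Alas2 was lower, a call that ended without NZB replicate 1 or 3 (adjusted p = 0.070 and 0.083). Proliferation markers had 3 of 6 higher, among them Mki67, by 0.75 (SE 0.08, adjusted p = 0.00045) over SM readings under background. Without NZB replicate 3 or any 1 SM array 1 call was left there, as those of Cdk1 and Birc5 ended (adjusted p = 0.055 to 0.15). The differences of these markers are all smaller than those of Jchain, Igkv8-30 and the 2 leading Ighm probe sets, and the part of other blood cells in the member differences was not tested.

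**Figure D4:**
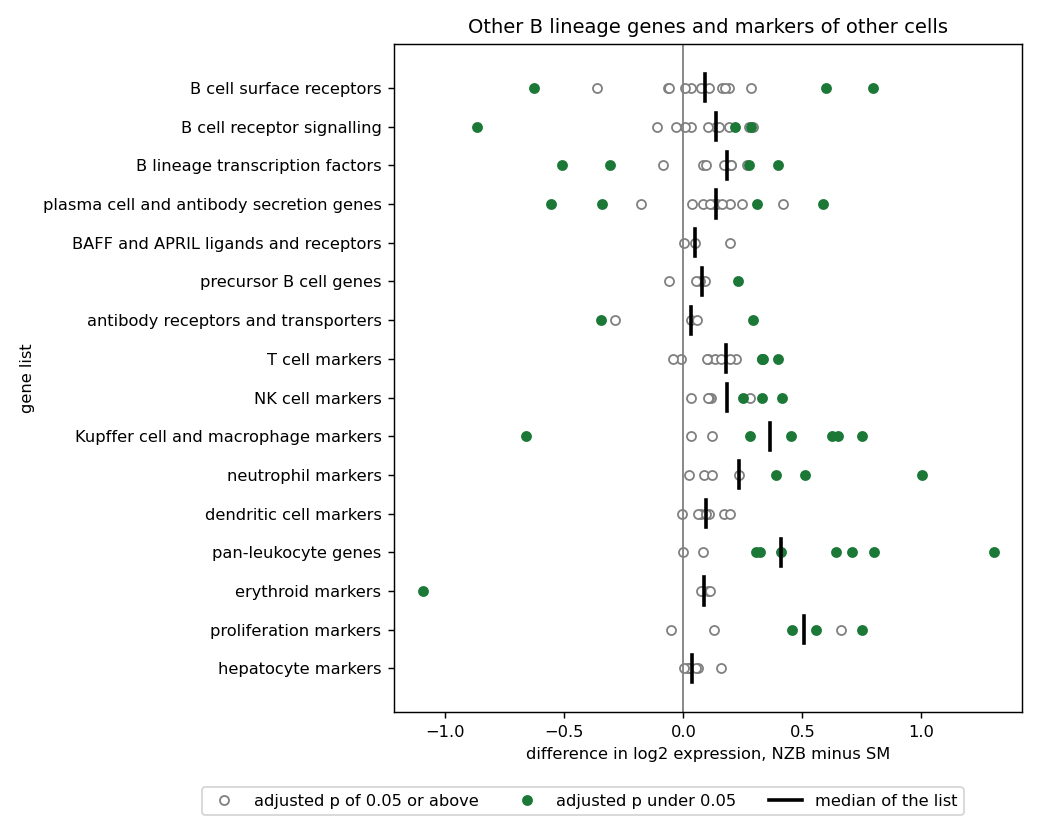
Difference in log2 expression, NZB minus SM (x axis), of each measured gene in the lists of B lineage genes (upper 7 rows) and of markers of other cells (lower 9 rows), with genes at an adjusted p under 0.05 filled and the median of each list as a bar. The B lineage medians lie between 0.03 and 0.18, and those of pan-leukocyte genes and Kupffer cell markers at 0.41 and 0.37.

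Among probe sets of 1 gene, the non-members most like Ighm and Jchain over the 6 arrays were no antibody genes. Probe sets paired with several genes were not ranked, so the absence of antibody genes holds for this ranking alone. The kappa ones left out, 1427455_x_at, 1427660_x_at and 1452417_x_at, had profiles much like those of Ighm and Jchain. They differed by 4.02, 4.06 and 4.24, beside 4.35 for the brightest Ighm probe set and 4.28 for Jchain. On each of them NZB replicate 3 was the highest. Of those, 1427455_x_at read 11.51, 11.67 and 12.62 in NZB mice, against 7.92, 7.81 and 8.00 in SM mice. Likeness was taken as the root mean square distance between log2 profiles, each centred on its own mean, from the mean profile of the brightest Ighm and Jchain probe sets. At 0.39, Igkv8-30 itself was near. The nearest non-member in the ranking was Hsd3b5, a steroid dehydrogenase of liver, at 0.23. It read 9.92, 9.79 and 11.16 in NZB mice, against 5.85, 5.85 and 6.23 in SM mice. There, as for Jchain, NZB replicate 3 was the highest. H2-D1 (0.39 and 0.55), Sdr9c7 (0.43 and 0.46) and Mup10 (0.45) followed, and Akr1c18, Lyz1, Reep3 and 2610005L07Rik were at 0.67 to 0.84. The strain difference makes up most of this likeness, and H2-D1 and Mup10 have near-identical copies that their probe sets may read.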

How the data were processed

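Liver RNA of 6 mice was measured on single-colour arrays, 1 per mouse. The deposited values come from RMA, per the submitters' processing notes (version and settings: not given in the sources used here). As read, the authors' deposited values are taken as log2 expression because they reach 14.9, too high for the natural log of a 16-bit intensity and below its log2 limit of 16. RMA compresses differences near background. No further normalization was applied, and 0 columns were left unmatched. The platform annotation names 1 gene for 34945 of the 45037 probe sets, several for 932 and none for 9160. Current symbols came from RefSeq's table of GRCm38.p6 by Entrez ID, with 34741 matches.

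The comparison of NZB with SM used lmFit and eBayes of limma 3.58.1 under R 4.3.3, two-sided, over all 45037 probe sets with Benjamini-Hochberg adjustment and a threshold of 0.05. Listed genes were read through their brightest probe set, in the same adjustment. The fit was tested on simulated data. An exact permutation test of 3 against 3 cannot go below p = 0.1, so none was used. The mice of a strain are called biological replicates in the labels.

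The members and lists were chosen with earlier results of these data known. The text names every member probe set and, in the B lineage lists, up to 4 genes per direction and list with the largest called differences. For markers of other cell types only some called genes are named, and none of the Kupffer cell or NK cell markers called higher. Also named are genes that complete small counts, up to 6 other immunoglobulin probe sets, the 10 probe sets nearest in profile, and Xist. Genes named without a call (Cd22, Cr2, Pax5, Xbp1, Sdc1, Prdm1, Irf4 and the heavy chain genes of other classes), Mki67, Alb and Igkv6-20 were picked after their values were seen.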

Additional observations from a re-analysis of the deposited data

How the results depend on the processing

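The differences of the members were recomputed under the alternatives, 252 values in all, and each moved by less than 1 SD between mice. The replicate block, the trended variances and the settings that drop probe sets leave a difference unchanged. Leaving out 1 of 3 mice can move it by only part of an SD. For those settings this outcome was therefore set beforehand. Only aligned medians, quantile normalization and array weights could have moved it further. No member probe set past the threshold changed sign, while 3 Ighm probe sets that did not pass, 1425324_x_at, 1427869_at and 1427756_x_at, did so under some settings, down to -0.12. The member probe sets past the threshold numbered 6 to 8 with 1 array left out (6 without SM replicate 2), and 6 to 10 under the other settings. Over all probe sets, 3741 to 6386 passed with 1 array left out, fewest without NZB replicate 3 (4413 without NZB replicate 2 and 4117 without SM replicate 2). Of the other immunoglobulin probe sets, 4 passed where dim probe sets were left out and 4 where those named as _x_at or _s_at were, with 12 and 23 left to test. The other B lineage genes past the threshold numbered 7 to 15 with 1 array left out, and the markers of other cell types 16 to 28.

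Same-numbered mice of the strains share only a number: their deviations from the strain means correlated at 0.04, -0.05 and 0.02 over probe sets. With the replicate block, 8 member probe sets, 8 other immunoglobulin probe sets, 12 other B lineage genes and 25 markers of other cell types passed, and 6006 probe sets in all. With Jchain alone as the template, all 10 nearest probe sets were the same. Arrays with 3 mice a strain, values near background and probe sets that may read several antibody transcripts set the limits.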
